A study of Mus musculus with 6 samples.

Results

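Kinesins are motor proteins that walk along microtubules with energy from ATP, and they fall into groups by their work. Mitotic kinesins build the spindle, hold and move chromosomes and drive the final cut between daughter cells, and their transcripts are made mainly in cells that are about to divide. Transport kinesins carry vesicles, mitochondria and other cargo towards the cell periphery, in dividing and resting cells alike, and basophils, as granulocytes, hold granules that move on the same tracks.

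The 38 kinesin genes described here are the rows of the deposited count table named Kif with a number and at most 1 further letter, or Kifc with a number, out of 37043 rows. By their known roles, 12 of them were placed among the mitotic kinesins, 14 among the transport kinesins and 12 in a remaining group of regulators of microtubules and cilia. The study proposed that IL-3 makes pre-basophils, the precursors of mature basophils, leave the bone marrow. To address this, it compared bone marrow-derived basophils (BMBAs) of wild-type C57BL/6J mice, with 3 cultures per group. They were stimulated for 6 h with 10 ng/mL IL-3 or with PBS as a control. All cultures had been grown from bone marrow for 7 days with 0.3 ng/mL of a cytokine, which the study's methods give as IL-3, and were enriched with beads for CD49b-bearing cells, so that the PBS group also consists of cells grown in IL-3. Neither the labels nor the methods say whether each library had its own mouse, so p-values measure the spread between these cultures.

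Library totals ranged from 10537540 to 13999287 counts, and expression is given as CPM, the count relative to the library's total over tested genes after TMM scaling. A count of 0 allows a level of 0.233 to 0.296 CPM on this scale (3 counts), depending on the library, for counting error alone. All 8 basophil markers were detected, 6 were higher and 1, Fcer1a, was lower in IL-3 (log2 fold change -0.50, edgeR adjusted p 2.38e-06), beside 18% higher and 20.2% lower of all genes, with Prss34 the most abundant of them in PBS (5615 ± 323 CPM in PBS against 5661 ± 183 CPM in IL-3, SD, n = 3 each). Markers of monocytes and macrophages were also present, and 7 of 9 were lower in IL-3 (20.2% of all genes), while Adgre1 was higher (log2 fold change 0.53, edgeR adjusted p 4.93e-05). Their summed level was 11833 to 12769 CPM in the PBS libraries and 6157 to 6797 CPM in the IL-3 libraries, most of it Lyz2, and none of the 9 was at 0. In bulk RNA, fewer cells of one type and less RNA per cell cannot be told apart, and this holds for every result that follows.

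Because most mitotic kinesins moved together, the promoter windows of a few members are shown first. Each window runs from 250 bases before to 50 bases after an annotated start site (RefSeq, GRCm38.p6) and is written 5′ to 3′ on the strand of the gene. Capitals mark the CHR, an element known from promoters of genes expressed late in the cell cycle (searched as TTTGAA or TTCGAA), and the CCAAT box, the site of the factor NF-Y. Both strands were searched, so that TTCAAA and ATTGG are marked too, and neighbouring matches may share letters. Kif11, Kif22 and Kif20b had the smallest adjusted p among mitotic kinesins with an entry, and Kif1c and Kif13a among transport kinesins. Kif23 was added after its values were seen, since it was the mitotic member that was not called.
Kif11 (chr19:37376132-37376431, plus strand, mitotic): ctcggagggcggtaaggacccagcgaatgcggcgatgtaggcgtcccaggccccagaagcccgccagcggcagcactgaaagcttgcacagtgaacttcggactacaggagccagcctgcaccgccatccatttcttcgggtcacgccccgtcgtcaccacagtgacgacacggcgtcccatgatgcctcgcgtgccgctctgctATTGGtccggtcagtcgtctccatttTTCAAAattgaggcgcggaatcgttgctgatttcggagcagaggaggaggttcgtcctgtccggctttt
Kif22 (chr7:127042371-127042670, minus strand, mitotic): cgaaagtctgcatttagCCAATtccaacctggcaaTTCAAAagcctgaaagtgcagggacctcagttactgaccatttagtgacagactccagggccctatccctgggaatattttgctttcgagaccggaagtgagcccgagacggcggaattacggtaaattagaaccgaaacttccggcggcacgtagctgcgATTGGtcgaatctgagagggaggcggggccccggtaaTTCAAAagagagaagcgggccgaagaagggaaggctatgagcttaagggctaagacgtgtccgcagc
Kif20b (chr19:34922108-34922407, plus strand, mitotic): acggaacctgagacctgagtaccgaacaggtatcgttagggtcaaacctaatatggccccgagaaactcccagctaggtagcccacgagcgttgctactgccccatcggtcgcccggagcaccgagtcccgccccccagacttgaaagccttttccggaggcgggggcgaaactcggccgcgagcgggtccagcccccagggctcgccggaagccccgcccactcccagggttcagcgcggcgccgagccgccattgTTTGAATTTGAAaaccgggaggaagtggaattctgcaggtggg
Kif23 (chr9:61946750-61947049, minus strand, mitotic): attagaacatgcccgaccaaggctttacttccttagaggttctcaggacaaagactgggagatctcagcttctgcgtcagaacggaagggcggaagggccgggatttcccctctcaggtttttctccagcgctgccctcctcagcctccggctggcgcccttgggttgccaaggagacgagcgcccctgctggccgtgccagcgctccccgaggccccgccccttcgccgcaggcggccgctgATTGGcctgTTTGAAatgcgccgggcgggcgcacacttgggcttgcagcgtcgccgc
Kif1c (chr11:70700298-70700597, plus strand, transport): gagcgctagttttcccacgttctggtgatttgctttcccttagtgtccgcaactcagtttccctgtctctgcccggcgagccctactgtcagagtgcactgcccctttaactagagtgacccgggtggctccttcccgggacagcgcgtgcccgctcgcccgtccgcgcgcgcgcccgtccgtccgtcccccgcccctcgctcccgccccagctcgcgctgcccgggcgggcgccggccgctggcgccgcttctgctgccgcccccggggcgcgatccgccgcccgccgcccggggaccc
Kif13a (chr13:46929669-46929968, minus strand, transport): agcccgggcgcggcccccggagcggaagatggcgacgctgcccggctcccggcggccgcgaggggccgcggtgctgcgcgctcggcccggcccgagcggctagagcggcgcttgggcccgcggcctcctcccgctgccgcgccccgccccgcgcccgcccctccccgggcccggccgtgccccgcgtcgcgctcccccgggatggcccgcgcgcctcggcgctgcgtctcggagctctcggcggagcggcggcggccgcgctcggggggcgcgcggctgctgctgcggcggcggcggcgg

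The CHR occurred in 10 of the 11 mitotic kinesin windows (90.9%), against 19.2% of all 32851 promoter windows of this length. In 8 of them a match lay within 50 bases of the annotated start, as in the windows of Kif11, Kif22, Kif20b and Kif23 printed above. The share of all windows with a match this close was not counted. Kif20b carried TTTGAA in tandem. Kif18a was the mitotic member without a match, and Kif20a had no entry. Of the 11 windows of 9 transport kinesins, 1 (9.09%) held a CHR, and the windows of Kif1c and Kif13a held neither motif. A CCAAT box stood in 7 of 11 mitotic windows (63.6%), in 3 of 11 transport windows (27.3%) and in 37.4% of all windows. CHR and CCAAT occurred together in 63.6% of mitotic windows, in 0 transport windows and in 7.52% of all windows. A further search, for GCGGGAA as found in many sites of E2F factors, had 0 matches in mitotic and transport windows and matched 4.60% of all windows. The 11 windows of 9 other kinesins held the CHR in 3 (27.3%), CCAAT in 4 (36.4%), both together in 3 (27.3%) and GCGGGAA in 2 (18.2%). These counts describe letters in the windows, and binding was not measured.

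**Figure D1:**
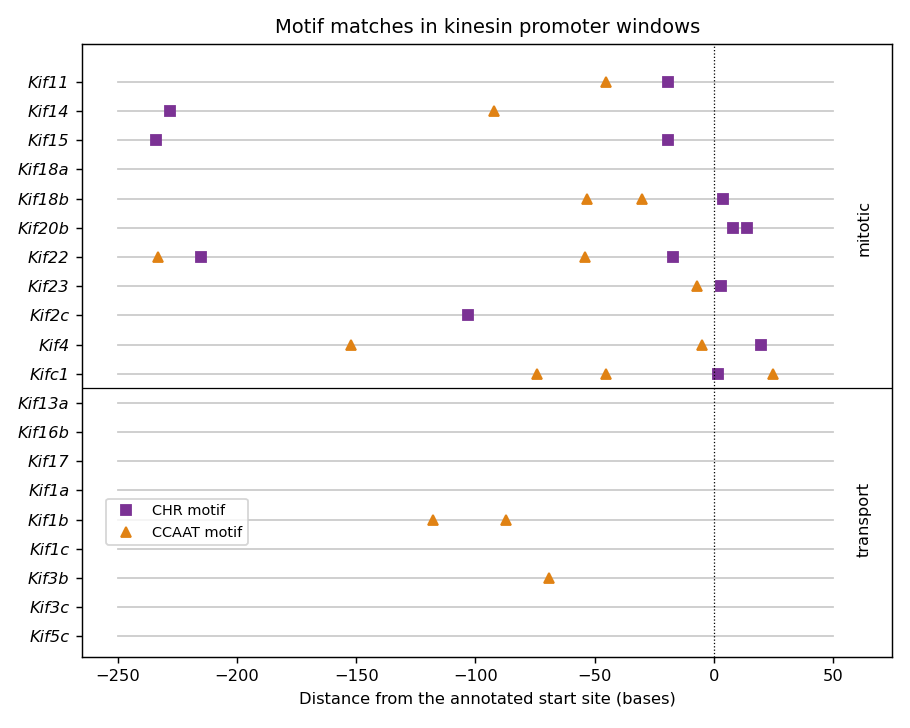
Position of CHR (squares) and CCAAT (triangles) matches in the promoter windows of the mitotic kinesins (above the line) and transport kinesins (below it), in bases from the annotated start site, with 1 window per gene (the one listed first, so that the CHR in the other window of Kif1a is not drawn). A CHR lies within 50 bases of the start in 8 of 11 mitotic windows, Kif23 included.

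All 12 mitotic kinesins were expressed highly enough to be tested, and 11 of them were lower in IL-3 (adjusted p below 0.05, edgeR's quasi-likelihood test over 16675 genes), whereas 20.2% of all tested genes were called lower. None was called higher, while 18% of all genes were. Scaling by library totals alone, which shifts the median log2 fold change of all genes to -0.17, turns the split of 3372 lower and 3003 higher genes into 5030 lower and 1698 higher, with all 11 mitotic calls still lower. The median log2 fold change of the 12 was -0.99, beside -0.0033 over all tested genes, and those called ranged from -1.27 to -0.73. In 10 of the 11 called genes all IL-3 libraries lay below all PBS libraries, which held for 24.4% of all genes. Of the 12, 5 were called with a log2 fold change of -1 or below (Kif2c, Kif18b, Kif20a, Kifc1 and Kif15), as were 5.68% of all genes. The member that was not called was Kif23. Kif4, Kif18a and Kif20a overlap protein-coding genes on the other strand, Kif22 an antisense RNA, Kif18b a lincRNA and Kif11 a pseudogene there, and since the strand setting of the counting is not stated, their reads could be mixed with those of the neighbour.

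**Figure D2:**
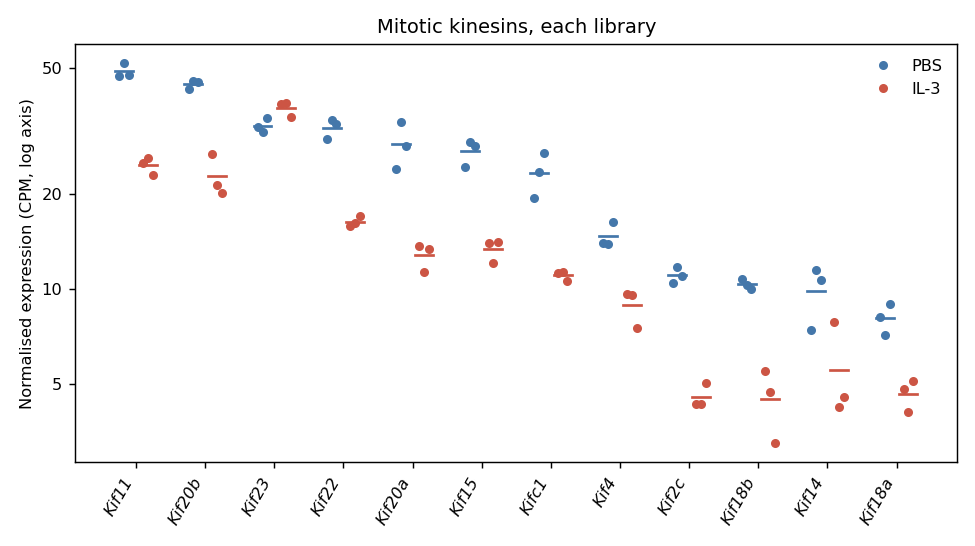
Normalised expression (CPM, log axis) of the 12 mitotic kinesins in the 3 PBS (blue) and 3 IL-3 (red) libraries, with each point a library and each bar a group mean, ordered by the mean in PBS. Red points lie below blue points in 10 genes, overlap with them in Kif14 and lie above them in Kif23.

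All 3 kinesins that shape the bipolar spindle were lower in IL-3. Kif11 (chromosome 19, 37376403 to 37421859, plus strand, GRCm38), the motor that slides antiparallel microtubules to make the spindle bipolar, was measured at 47.3, 51.9 and 47.7 CPM in PBS replicates 1 to 3 and at 25.0, 26.0 and 23.0 CPM in IL-3 replicates 1 to 3. The groups did not overlap, and the log2 fold change was -0.99 (SE 0.0864, edgeR adjusted p 1.68e-07). Kif15 (chromosome 9, 122951046 to 123018733, plus strand), which can share the work of Kif11, had 24.3, 29.2 and 28.3 CPM in PBS against 14.0, 12.1 and 14.1 CPM in IL-3. It fell by 1.02 on the log2 scale (SE 0.118, edgeR adjusted p 3.90e-06). Kifc1 (chromosome 17, 33875659 to 33890661, minus strand), a motor that walks the other way and focuses the spindle poles, had 19.4, 23.4 and 26.9 CPM in PBS against 11.3, 11.3 and 10.6 CPM in IL-3, a fall of 1.07 (SE 0.134, edgeR adjusted p 1.03e-05). Of the 50-mers of its transcripts, 38.6% also occurred in Kifc5b, and how reads were divided between the pair is uncertain. Their sum was 29.7, 34.3 and 38.7 CPM in PBS against 17.97, 16.7 and 16.4 CPM in IL-3, again without overlap.

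Motors that act on chromosomes were lower as well. Kif22 (chromosome 7, 127027729 to 127042471, minus strand), which binds chromosome arms and pushes them towards the spindle equator, had 29.8, 34.2 and 33.3 CPM in PBS against 15.8, 16.2 and 16.99 CPM in IL-3. Its log2 fold change was -0.99 (SE 0.101, edgeR adjusted p 1.14e-06). Kif4 (chromosome X, 100625737 to 100727214, plus strand), which shapes chromosomes and sets the length of the central spindle with Prc1, had 14.0, 13.9 and 16.3 CPM in PBS against 9.68, 9.58 and 7.52 CPM in IL-3. It had the smallest fall among the called mitotic kinesins, 0.73 on the log2 scale (SE 0.144, edgeR adjusted p 0.000822), without overlap between the groups.

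Kinesins that act at microtubule ends included the lowest log2 fold changes. Kif2c (chromosome 4, 117159639 to 117182639, minus strand), a depolymerase that corrects wrong attachments, was at 10.5, 11.7 and 11.01 CPM in PBS against 4.34, 4.33 and 5.04 CPM in IL-3, and its log2 fold change of -1.27 (SE 0.158, edgeR adjusted p 9.13e-06) was the lowest of all tested kinesins. Kif18b (chromosome 11, 102905529 to 102925124, minus strand), which controls the length of astral microtubules, was at 10.8, 10.3 and 10.0 CPM in PBS against 5.53, 4.75 and 3.26 CPM in IL-3, with a log2 fold change of -1.22 (SE 0.187, edgeR adjusted p 8.00e-05). Its relative Kif18a (chromosome 2, 109280738 to 109341747, plus strand), which damps the movement of chromosomes at the spindle equator, was at 8.18, 7.19 and 8.99 CPM in PBS against 4.84, 4.08 and 5.12 CPM in IL-3. It fell by 0.79 (SE 0.177, edgeR adjusted p 0.00210). In all 3 genes the groups stood apart, and the confidence intervals of Kif2c (-1.61 to -0.93) and Kif18a (-1.17 to -0.42) overlapped, so that the order of their falls is not firm.

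Kinesins of cytokinesis, the last step of division, did not all behave alike. Kif20a, which carries the chromosomal passenger complex to the central spindle, was at 24.0, 33.8 and 28.3 CPM in PBS against 13.7, 11.3 and 13.4 CPM in IL-3, a log2 fold change of -1.16 (SE 0.136, edgeR adjusted p 4.85e-06). Kif20b (chromosome 19, 34922361 to 34975745, plus strand), which acts at the midbody, was at 42.9, 45.6 and 45.2 CPM in PBS against 26.8, 21.3 and 20.2 CPM in IL-3 and fell by 0.98 (SE 0.103, edgeR adjusted p 1.59e-06). Kif14 (chromosome 1, 136466343 to 136531511, plus strand), which recruits citron kinase to the midbody, was at 7.44, 11.5 and 10.7 CPM in PBS against 7.90, 4.25 and 4.58 CPM in IL-3. It fell by 0.84 (SE 0.229, edgeR adjusted p 0.00848), but IL-3 replicate 1 lay above PBS replicate 1, so the groups overlapped.

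Kif23 (chromosome 9, 61915905 to 61946774, minus strand), the motor subunit of the centralspindlin complex that organises the cleavage furrow, was not called in either direction. It was at 32.5, 31.4 and 34.9 CPM in PBS against 38.6, 38.7 and 35.0 CPM in IL-3. All 3 IL-3 values were above all 3 PBS values, as in 23.8% of all genes, though IL-3 replicate 3 exceeded PBS replicate 3 by very little. The log2 fold change was 0.18 (95% confidence interval 0.0014 to 0.37, unadjusted p 0.0485, edgeR adjusted p 0.106), so no change was called. With library totals it was 0.022 (edgeR adjusted p 0.878). The intervals of the other 11 mitotic kinesins ended at -0.35 or below and did not reach that of Kif23. Of its 50-mers, 0.470% were shared with other genes and no annotated gene overlaps it. Its promoter window held both a CHR and a CCAAT box, as did those of Kif11 and Kif22.

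The distance between Kif23 and its class was also measured within each library, after its values had been seen. The summed CPM of the other 11 mitotic kinesins was 7.34, 8.69 and 7.64 times that of Kif23 in PBS and 3.60, 3.23 and 3.54 times in IL-3, a difference in the log2 ratio of -1.19. The exact permutation test over the 6 libraries (two-sided) gave p = 0.1 for this ratio and for those of Racgap1 and Kif11 to Kif23, the smallest value that 3 against 3 can give. As the ratios were chosen with the values known, nothing is drawn from these p-values. Kif23 made up 12.0, 10.3 and 11.6% of the mitotic kinesin CPM in PBS against 21.8, 23.6 and 22.0% in IL-3. Racgap1, which encodes the partner of Kif23 in centralspindlin and was chosen for that reason after the values were seen, was at 34.8, 44.5 and 42.6 CPM in PBS against 24.5, 20.3 and 19.1 CPM in IL-3, a log2 fold change of -0.94 (edgeR adjusted p 8.53e-06). The ratio of Racgap1 to Kif23 went from 1.07, 1.42 and 1.22 in PBS to 0.634, 0.525 and 0.545 in IL-3.

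Partners of the mitotic kinesins, from a list of 21 genes of the spindle, the passenger complex and the central spindle, were all tested, and all 21 were lower in IL-3, each without overlap between the groups, beside 20.2% called lower and 24.4% without overlap in that direction among all genes. Their median log2 fold change was -1.06. The smallest adjusted p belonged to Cenpf, a kinetochore protein, at -1.31 (4.19e-09), Birc5, the survivin of the passenger complex, at -1.18 (2.56e-08), and Cenpe, a kinetochore kinesin with a symbol of another form, at -1.14 (2.82e-08), all by edgeR. Aurka had the smallest fall, 0.63 on the log2 scale. The value of Kif23 lay above those of all 21 partners. The summed CPM of monocyte and macrophage markers moved in the same direction as that of the mitotic kinesins, with a mean ratio of IL-3 to PBS of 0.514 for the markers and 0.570 for the kinesins, while basophil markers had a ratio of 1.43. The sums of erythroid (0.498) and eosinophil markers (0.697) were lower too. Those of mast cell (1.70), neutrophil (1.58), and NK and T cell markers (3.54) were higher. The part of a changed mix of cells in the fall of mitotic kinesins was not tested.

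**Figure D3:**
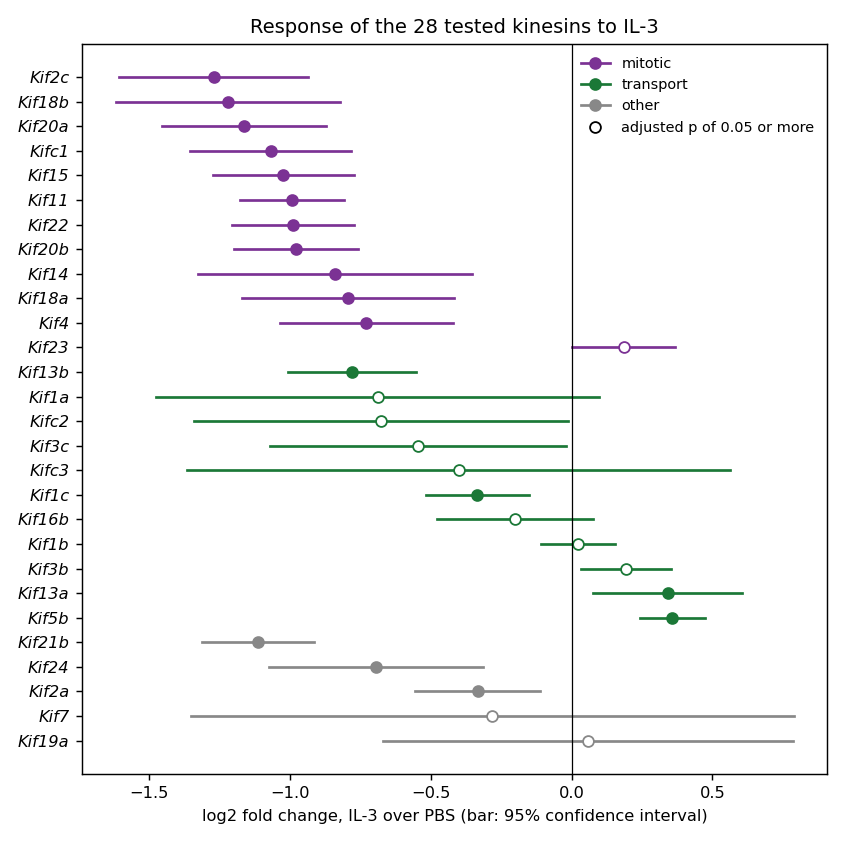
Log2 fold change of IL-3 over PBS for the 28 tested kinesins with 95% confidence intervals, coloured by class (mitotic, transport, other) and filled where the adjusted p was below 0.05. Of the mitotic kinesins 11 lie between -1.27 and -0.73 and Kif23 at 0.18, while the transport kinesins spread from -0.78 to 0.36.

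Transport kinesins were called lower and higher at shares close to those of all genes. Of the 14, 11 were tested, and 2 were lower (18.2%), 2 were higher and 7 were not called. Over all genes tested, 20.2% were lower and 18% higher. The median log2 fold change of the class was -0.33, and leaving out PBS replicate 1 or IL-3 replicate 1 moved it to -0.19 or -0.51. The member at the median was Kif1c. With library totals, 5 transport kinesins were lower and 1 higher, beside 5030 lower and 1698 higher genes in all. The summed CPM of the class, most of it from few genes, was 487, 506 and 481 in PBS against 547, 531 and 538 in IL-3, a log2 ratio of 0.13 that was -0.030 when libraries were scaled by their totals alone. Antisense RNAs are annotated across Kif5b, Kif13a and Kif3c, whose counts could hold reads from them.

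**Figure D4:**
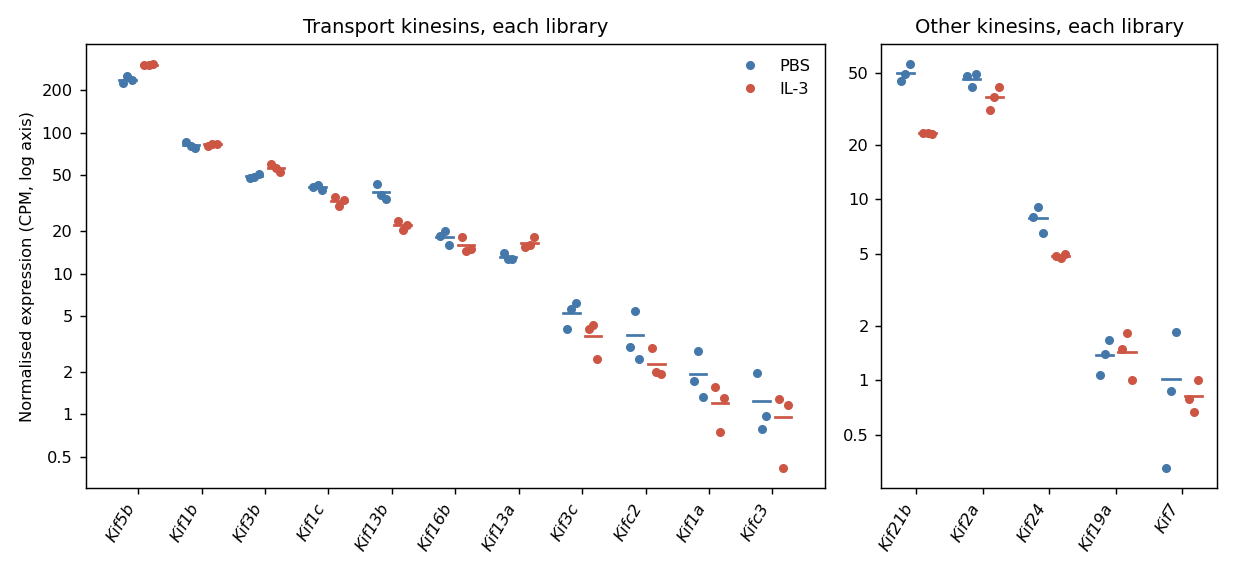
Normalised expression (CPM, log axis) of the 11 tested transport kinesins (left) and the 5 other tested kinesins (right) in the 3 PBS (blue) and 3 IL-3 (red) libraries, with each point a library and each bar a group mean. Red points lie above blue points in Kif5b, Kif3b and Kif13a and below them in Kif1c, Kif13b, Kif21b and Kif24.

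Kif5b, the heavy chain of conventional kinesin that carries mitochondria, lysosomes and granules, was the most abundant kinesin. It was at 224, 249.97 and 237 CPM in PBS against 303, 302 and 306 CPM in IL-3, without overlap. The log2 fold change was 0.36 (SE 0.0538, edgeR adjusted p 6.65e-05), and it was 0.20 and still called when libraries were scaled by totals alone. Kif5b made up 46.0, 49.4 and 49.2% of transport kinesin CPM in PBS against 55.5, 56.8 and 56.8% in IL-3. The 13 other transport kinesins together were at 263, 256 and 244 CPM in PBS against 243, 229 and 232 CPM in IL-3. The neuronal heavy chains Kif5a and Kif5c had at most 23 and 4 counts in a library and were not tested.

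Members of one kinesin family, Kif13a and Kif13b, were called in opposite directions. Kif13a (chromosome 13, 46749087 to 46929867, minus strand), which carries recycling endosomes, was at 13.9, 12.6 and 12.7 CPM in PBS against 15.4, 16.0 and 18.2 CPM in IL-3. Its log2 fold change was 0.34 (SE 0.124, edgeR adjusted p 0.0399). This call was lost without PBS replicate 2 (adjusted p 0.101), PBS replicate 3 (0.0919), IL-3 replicate 2 (0.0670) or IL-3 replicate 3 (0.169), and with the replicate block (0.0610). It was also lost with library totals (log2 fold change 0.18, adjusted p 0.281), iterated TMM (0.0550), no filter on low counts (0.0546), the Wald test of DESeq2 (0.0792), the stricter threshold of 0.01 and glmTreat, which tests against a fold of 1.5. Kif13b (chromosome 14, 64647265 to 64809617, plus strand), a motor that binds the scaffold protein Dlg1, was at 43.3, 35.9 and 33.6 CPM in PBS against 23.4, 20.5 and 22.0 CPM in IL-3. It fell by 0.78 (SE 0.107, edgeR adjusted p 2.69e-05), the largest fall of a called transport kinesin, and the groups stood far apart. No 50-mer was shared between these genes or with others.

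Among the family of Kif1, Kif1c (chromosome 11, 70700548 to 70731964, plus strand), a carrier of vesicles and integrins, was at 41.1, 42.7 and 39.1 CPM in PBS against 34.7, 29.9 and 33.0 CPM in IL-3, and fell by 0.33 (SE 0.0860, edgeR adjusted p 0.00574) without overlap. Kif1b (chromosome 4, 149176319 to 149307693, minus strand), which moves mitochondria and vesicles, was at 85.2, 80.9 and 77.9 CPM in PBS against 80.9, 83.6 and 83.6 CPM in IL-3. Its log2 fold change of 0.02, which was -0.14 with library totals, had a 95% confidence interval of -0.11 to 0.16 (edgeR adjusted p 0.802). Kif1a, the neuronal member, was tested at 1.95 ± 0.769 CPM in PBS against 1.22 ± 0.424 CPM in IL-3 and was not called (edgeR adjusted p 0.162).

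Kif3b (chromosome 2, 153291413 to 153333390, plus strand), a motor subunit of heterotrimeric kinesin, was at 47.9, 48.0 and 50.7 CPM in PBS against 59.6, 56.1 and 52.2 CPM in IL-3. The groups did not overlap, but the log2 fold change of 0.19 missed the threshold (edgeR adjusted p 0.0519). It passed without IL-3 replicate 3 (adjusted p 0.0309) and with the size factors of DESeq2 (0.0492). With library totals Kif3b was at 0.032 (adjusted p 0.796), and without IL-3 replicate 1 at 0.14 (0.209). Kif3c, an alternative subunit in such motors, had a log2 fold change of -0.55 (edgeR adjusted p 0.0962) and passed without PBS replicate 1 (0.0412) and with library totals (0.0340), while without IL-3 replicate 3 it was at -0.32 (0.361) and without PBS replicate 3 at -0.42 (0.278). Kifap3, the accessory subunit that links this motor to cargo, was lower at -0.86 (edgeR adjusted p 0.000751) and is named after its values were seen. Kifc2, of low expression, was at -0.68 (edgeR adjusted p 0.103) and passed without PBS replicate 3 (0.0406) and with library totals (0.0420), but its value rests largely on PBS replicate 2, without which it was at -0.28 (0.534). Kif16b, which moves early endosomes, and Kifc3, which is known from cell junctions, had log2 fold changes of -0.20 and -0.40 and were not called, though Kif16b passed with library totals (adjusted p 0.0410). With 1 library left out, Kif16b lay between -0.31 (without IL-3 replicate 1) and -0.13 (without PBS replicate 2) and was not called. Kif17 was not tested, with at most 15 counts in a library.

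Genes that couple kinesins to cargo and the opposing motor dynein were looked at in the same fit. Of 21 names of light chains and cargo adaptors, 20 were tested, with 6 lower, 5 higher and 9 not called, beside 20.2% lower and 18% higher of all genes, and the median log2 fold change was 0.018. Those with the smallest adjusted p were Arl8b, a GTPase that recruits kinesin to lysosomes, at -0.41 (6.09e-05), Mapk8ip3, an adaptor of axonal transport, at 0.53 (8.78e-05), and the light chain Klc4 at -0.64 (0.000293), all by edgeR. The light chains Klc1, Klc2 and Klc3, named after their values were seen, were higher at 0.31, 0.48 and 0.86. Of 23 tested genes of dynein and dynactin, 2 were lower, 8 were higher and 13 were not called, beside the same 20.2% and 18% of all genes, with a median of 0.061. The smallest adjusted p were those of Ndel1, a regulator of dynein, at 0.60 (1.92e-06), the light chain Dynll1 at 0.37 (3.27e-05) and the light chain Dynlt3 at -0.44 (0.000256), again by edgeR.

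Of the 12 kinesins that are neither typical mitotic nor typical transport motors, 5 were tested, and 3 of them were lower, beside 20.2% of all genes. Kif21b (chromosome 1, 136131389 to 136177998, plus strand), which slows the growth of microtubules and is known from neurons and lymphocytes, was at 44.9, 49.4 and 55.7 CPM in PBS against 23.1, 23.2 and 23.0 CPM in IL-3. Its log2 fold change of -1.11 (SE 0.0936) had the smallest adjusted p of all kinesins (1.09e-07, edgeR), and the IL-3 values were nearly equal to each other. Kif24 (chromosome 4, 41390745 to 41464887, minus strand), a depolymerase of the mother centriole, was at 8.02, 9.03 and 6.52 CPM in PBS against 4.84, 4.75 and 4.96 CPM in IL-3, a fall of 0.69 (SE 0.179, edgeR adjusted p 0.00581). Its promoter window held a CHR and 4 CCAAT boxes, and 5.03% of its 50-mers were shared with other genes.

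Kif2a (chromosome 13, 106958996 to 107022126, minus strand), the depolymerase related to Kif2c that works at spindle poles and in resting cells, was at 47.6, 41.6 and 49.4 CPM in PBS against 31.1, 36.7 and 41.8 CPM in IL-3. IL-3 replicate 3 lay above PBS replicate 2, so the groups overlapped, and the log2 fold change of -0.33 (edgeR adjusted p 0.0183) lost its call without PBS replicate 1 (0.0566), PBS replicate 3 (0.0729) or IL-3 replicate 1 (0.0850). Kif2a overlaps the protein-coding gene Dimt1 on the other strand, whose reads could be mixed with its own. The 95% confidence intervals of Kif2a (-0.55 to -0.11) and Kif2c (-1.61 to -0.93) did not overlap. The ciliary kinesins Kif7 (1.02 ± 0.771 CPM in PBS and 0.821 ± 0.173 in IL-3) and Kif19a (1.38 ± 0.306 and 1.44 ± 0.413 CPM) were not called (SD, n = 3). Kif9, Kif21a, Kif26a, Kif26b, Kif27 and Kif28 were not tested and had at most 30 counts in any library, and Kif6 had 0 counts in all 6, which allows up to 3 counts per library.

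**Figure D5:**
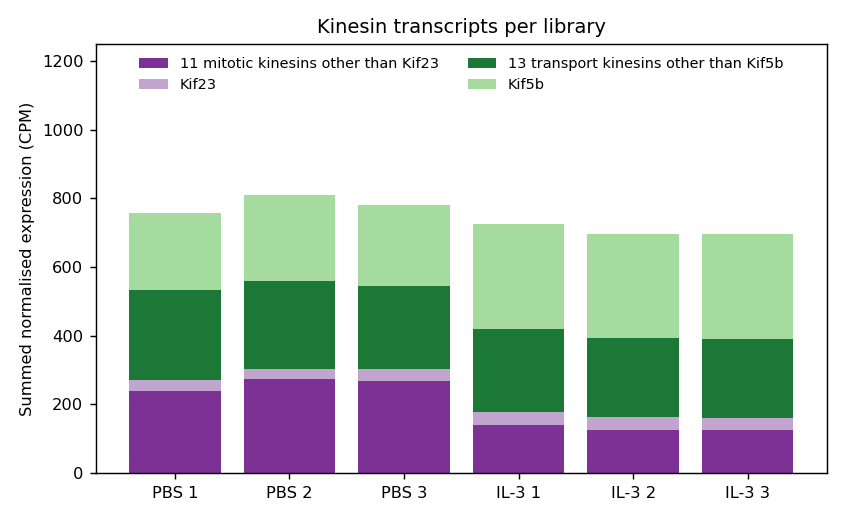
Summed normalised expression (CPM) per library of the mitotic kinesins without Kif23, of Kif23, of the transport kinesins without Kif5b and of Kif5b, stacked from bottom to top. The mitotic share shrinks in the IL-3 libraries, while the segments of Kif23 and Kif5b do not.

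Set side by side in each library, the summed CPM of mitotic kinesins was 271, 304 and 301 in PBS against 177, 164 and 159 in IL-3. It equalled 0.556, 0.601 and 0.627 times that of transport kinesins in PBS and 0.325, 0.309 and 0.295 times in IL-3, a ratio that does not depend on the scaling of libraries. Mitotic kinesins supplied 31.3, 33.2 and 33.5% of all kinesin CPM in PBS against 22.5, 21.5 and 20.6% in IL-3. In both sets of values the groups stood apart.

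To compare levels between genes, CPM was divided by the length of the longest coding transcript in kilobases. On this scale Kif5b was highest in both groups, at 39.3 ± 2.13 CPM per kb in PBS and 50.3 ± 0.316 CPM per kb in IL-3 (SD, n = 3). In PBS, Kif22 came next at 15.3 ± 1.10, followed by Kif11 at 10.2 ± 0.533, Kifc1 at 9.85 ± 1.59 and Kif23 at 9.69 ± 0.526 CPM per kb, of which the last 3 lay within their spread. In IL-3, Kif5b was followed by Kif23 at 11.02 ± 0.626 and Kif3b at 9.94 ± 0.660, within their spread, while Kif22 and Kif11 stood at 7.71 ± 0.289 and 5.11 ± 0.320 CPM per kb. By its mean, Kif23 was the most abundant mitotic kinesin per length after IL-3 but not in PBS.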

How the data were processed

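Bulk RNA-seq data of 6 libraries were analysed, 3 from BMBAs stimulated with PBS and 3 from BMBAs stimulated with IL-3. The values deposited by the authors are raw counts of reads per gene symbol. According to the methods of the study, the authors trimmed reads with Cutadapt (version 3.4 in the submitters' processing notes), mapped them with Bowtie2 to reference RNA of GRCm38 and counted reads per gene, whereas the processing notes name GRCm39. No molecular identifiers are described, so PCR copies count as reads. Labels and methods differ on RNA preparation (column kit or direct lysis).

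Counts were filtered with filterByExpr and scaled by TMM, and groups were compared with the quasi-likelihood F test of edgeR 4.0.16 (R 4.3.3), two-sided, with Benjamini-Hochberg adjustment over all 16675 tested genes and calls at an adjusted p below 0.05. The group was the only term. The study used the package TCC, and its model terms are not given in the methods. Standard errors came from the F values. The 95% confidence intervals came from these and the total degrees of freedom of the test, which add prior to residual ones. The pipeline was tested on simulated data. Coordinates, transcript lengths and shared 50-mers came from GENCODE M21 (GRCm38), and promoter sequences from RefSeq (GRCm38.p6), with entries for 29 of the 38 kinesins. Libraries of the same group differed by at least 2.93 in chi-square per degree of freedom, so none was counted as a repeat. Same-numbered libraries were not treated as pairs in the main fit.

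The members, their classes and all lists were chosen with earlier results of these data known. All members were described, those called with their value in every library, and the 3 genes of smallest adjusted p were named in each list of partners. Other genes are said to be chosen after their values were seen. Mast cell, neutrophil, eosinophil, erythroid, and NK and T cell markers were measured too. Alternatives were other scalings (size factors of DESeq2 1.42.0, library totals, iterated TMM), other filters (none, or 1 CPM in 3 libraries), the DESeq2 Wald test, limma-voom (limma 3.58.1), a test against a fold of 1.5 (glmTreat), an adjusted p below 0.01, a replicate block, and leaving out each library. Of the kinesins that match the rule, 1 is not reported here.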

Additional observations from a re-analysis of the deposited data

How the results depend on the processing

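The 11 mitotic kinesins called lower kept that direction under all 16 alternatives, and 8 of them kept the call in every one. The test against a fold of 1.5, by its construction, left 8 mitotic kinesins, 1 other kinesin and 0 transport kinesins called lower, 0 transport kinesins called higher, and 883 lower and 709 higher genes in all, and the calls of Kif4, Kif14 and Kif18a were lost there. Kif23 was not called under any alternative (0.022 to 0.23, adjusted p at least 0.0739). Scaling by library totals shifted the median of all genes to -0.17. It gave 5030 lower and 1698 higher genes, 5 transport kinesins lower and 1 higher, medians of -1.15, -0.50 and -0.50 for mitotic, transport and other kinesins, and log2 ratios of the summed CPM of -0.97 for mitotic and -0.030 for transport kinesins. Only 1 transport kinesin was called higher with iterated TMM, no filter, the DESeq2 Wald test, an adjusted p below 0.01 or the replicate block. Over all genes, 2163 to 3110 were higher in these settings. With no filter, 5 of 11 other kinesins were lower, beside 3535 of 32177 genes in all, and their median was -0.68, and it was -0.51 with the filter at 1 CPM, as these settings test other genes. The replicate block changed the call of 1 of 28 kinesins, Kif13a, to a log2 fold change of 0.34 (adjusted p 0.0610). Deviations of same-numbered libraries over all tested genes correlated at -0.0087, -0.016 and -0.022. These values show no sign of pairing, but whether same-numbered libraries shared a mouse cannot be told from them.

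With 1 library left out, the medians ranged from -1.07 to -0.96 (mitotic), -0.51 to -0.19 (transport) and -0.68 to -0.40 (other). In these fits 1 to 2 transport kinesins were higher and 2 to 3 other kinesins lower. Over all 17098 to 17333 genes tested there, 2482 to 2787 were higher and 2883 to 3108 lower. Directions that turned belonged to kinesins that were not called. Library totals gave -0.14 for Kif1b and -0.10 for Kif19a, iterated TMM gave -0.00033 for Kif1b, and limma-voom gave 0.013 for Kif7. Over the fits that leave out a library, Kif1b ranged from -0.0072 to 0.058, Kif19a from -0.17 to 0.28, Kif7 from -0.72 to 0.47 and Kifc3 from -0.64 to 0.10. The cause of changes other than those stated was not tested. Low counts kept 10 kinesins from being tested, of which 9 had any count.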

Other observations

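The remaining marker lists, each of few genes, were measured in the same fit, in which 20.2% of all genes were lower and 18% higher. Of the 6 mast cell markers, 5 were tested, 0 lower and 3 higher, with a summed level of 775 to 865 CPM in PBS against 1327 to 1464 CPM in IL-3, Cpa3 being the most abundant. Of the 8 neutrophil markers, 6 were tested, 1 lower and 3 higher, with a summed level of 113 to 155 CPM in PBS against 186 to 241 CPM in IL-3, Lcn2 having the most counts over all 6 libraries. Of the 6 eosinophil markers, 5 were tested, 3 lower and 1 higher, with a summed level of 155 to 173 CPM in PBS against 95.02 to 136 CPM in IL-3, Ear2 being the most abundant. Of the 6 erythroid markers, 4 were tested, 2 lower and 0 higher, with a summed level of 101.09 to 219.7 CPM in PBS against 54.7 to 101.10 CPM in IL-3, Hba-a1 being the most abundant. Of the 6 NK and T cell markers, 2 were tested, 0 lower and 1 higher, with a summed level of 8.02 to 9.95 CPM in PBS against 31.5 to 34.8 CPM in IL-3, Nkg7 being the most abundant. Gzma had 0 counts in all libraries. The part of these cells in the values of the kinesins was not tested.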
